A study of Homo sapiens with 6 samples.

Results

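The CD1 gene cluster of human chromosome 1 holds CD1A, CD1B, CD1C, CD1D and CD1E, 5 of the 19974 protein-coding genes considered. It was described through the H3K27ac peaks of a 350 kb interval, 158.1 to 158.45 Mb on chromosome 1 (hg38), each peak being assigned once to the nearest CD1 gene. The interval held 66 of the 83410 peaks of the 3 H3K27ac peak lists: 8 of 35154 in 6T-CEM, against 29 of 16159 in Jurkat replicate 1 and 29 of 32097 in Jurkat replicate 2. The cluster was chosen from measured values, since an earlier look at the same peak lists had shown fewer bases under peaks there in 6T-CEM than in Jurkat. The difference in covered bases between the lines is therefore given as a description and carries no test.

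6T-CEM and Jurkat are established human lines grown from T-cell acute lymphoblastic leukaemia, T-ALL. The series text names a 10 nM treatment for 24 h and the title names the BET inhibitor GNE-987, but no sample label states a treatment, so any library may come from treated or untreated cells. 6T-CEM had 1 H3K27ac library and Jurkat had 2; the 3 IgG samples of the series were not analysed here. The peak names of Jurkat replicate 2 begin with Jur-NE and those of replicate 1 with Jur, a difference that neither the labels nor the files explain. Whether the Jurkat libraries came from separate cultures is not stated, so their difference may be technical, and the spread of 6T-CEM is unknown. Peak lists carry no read counts, so depth is unknown. Fewer cells carrying the mark and a weaker mark per cell cannot be told apart in such lists.

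CD1 proteins resemble MHC class I molecules and pair with beta-2-microglobulin, but they display lipids to T cells in place of peptides. CD1a, CD1b and CD1c form group 1 and present foreign and self lipids, CD1d presents glycolipids to natural killer T cells, and CD1e stays inside the cell and helps to load lipids. In the thymus, group 1 proteins mark the cortical stage of T-cell development, and CD1a is used to class T-ALL cases as cortical. H3K27ac, acetylation of a lysine of histone H3, sits at promoters and enhancers in use. The genes lie on chromosome 1 in the order CD1D, CD1A, CD1C, CD1B and CD1E, and the RefSeq span of CD1B (chr1:158285405-158331531) includes predicted transcripts and encloses CD1C (chr1:158289923-158294774).

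RefSeq (GRCh38.p14) promoters were matched for CD1D, CD1A, CD1C and CD1E, with 6 start sites in all; CD1B was not matched. Each runs from 250 bases before the start to 50 bases from it on, 5′ to 3′ on the plus strand, and the 4 shown, 1 per matched gene, are those to which the coverage by peaks below refers most. They are CD1D (downstream of its pair of starts, chr1:158180645-158180944), CD1A (upstream start, chr1:158248086-158248385), CD1C (chr1:158289673-158289972) and CD1E (chr1:158353644-158353943). Capitals mark matches on either strand to the RUNX motif TGTGGT, the ETS motif GGAAGT, the TCF/LEF motif CTTTGA and the motif of GATA factors, spelled AGATAA.
CD1D downstream start: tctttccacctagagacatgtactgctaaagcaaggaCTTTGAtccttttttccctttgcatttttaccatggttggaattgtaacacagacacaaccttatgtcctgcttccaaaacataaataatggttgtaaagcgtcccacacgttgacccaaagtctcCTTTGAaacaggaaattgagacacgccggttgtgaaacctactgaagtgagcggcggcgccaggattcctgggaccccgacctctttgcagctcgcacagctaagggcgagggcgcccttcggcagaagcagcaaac
CD1A upstream start: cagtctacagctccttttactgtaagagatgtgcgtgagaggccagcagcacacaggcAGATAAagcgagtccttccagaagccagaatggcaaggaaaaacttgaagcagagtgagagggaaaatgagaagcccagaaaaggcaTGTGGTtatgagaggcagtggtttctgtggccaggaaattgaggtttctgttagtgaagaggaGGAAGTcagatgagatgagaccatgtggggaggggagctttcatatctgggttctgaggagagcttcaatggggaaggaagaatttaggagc
CD1C: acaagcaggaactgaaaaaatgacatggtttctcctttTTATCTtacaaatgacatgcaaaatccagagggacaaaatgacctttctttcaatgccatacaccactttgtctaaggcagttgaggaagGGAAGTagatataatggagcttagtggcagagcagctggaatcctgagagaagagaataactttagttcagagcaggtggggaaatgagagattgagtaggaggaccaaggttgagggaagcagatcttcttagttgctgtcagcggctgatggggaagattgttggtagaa
CD1E: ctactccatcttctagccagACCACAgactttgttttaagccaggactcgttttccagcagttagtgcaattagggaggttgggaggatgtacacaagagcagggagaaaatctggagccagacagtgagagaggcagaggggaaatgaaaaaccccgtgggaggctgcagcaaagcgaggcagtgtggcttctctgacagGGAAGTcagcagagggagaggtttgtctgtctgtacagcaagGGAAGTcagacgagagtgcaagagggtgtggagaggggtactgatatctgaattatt

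Peaks of 6T-CEM covered 271 of the 300 bases at CD1E and 66 at the upstream CD1A start, and none at CD1C, at the downstream CD1A start or at either CD1D start. Jurkat replicate 1 covered all 300 bases of all 6 promoters. Jurkat replicate 2 covered 300 bases at CD1E and at the downstream CD1D start and 298 at the upstream CD1A start. Its nearest peak lay 17 bp from the CD1C promoter, 75 bp from the upstream CD1D promoter (chr1:158179697-158179996) and 467 bp from the downstream CD1A promoter (chr1:158254174-158254473). The nearest 6T-CEM peak lay 3476 bp from the CD1C promoter and 67376 bp from the downstream CD1D promoter. Of the 3 CD1 promoters covered in both Jurkat lists, the downstream CD1D promoter alone had no 6T-CEM base, and among all 5370 RefSeq promoters covered in both Jurkat lists 12.5% had none; coverage by these lists chose the cluster, so nothing is read from the comparison. The lists touched 24.95% (6T-CEM), 24.8% (Jurkat replicate 1) and 18.4% (Jurkat replicate 2) of all 34789 promoters.

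The CD1 promoters were poor in CpG, with a median of 2 CpG dinucleotides against 14 over all promoters, and had a median GC content of 48.0% against 58.7%. The downstream CD1D start stood apart from the other CD1 starts with 12 CpG. An ETS match was present in 3 of the 6 CD1 promoters (22.8% of all promoters held it), a GATA match in 2 (10.4%), a RUNX match in 2 (13.1%) and a TCF/LEF match in 1 (12.9%). CD1E held its ETS match at 2 places, -49 and -7 from the start, and CD1D held its TCF/LEF match at -213 and -87. An E-box (CANNTG) was found in 4 of 6 (68.7%) and a MYB-type match (AACNG) in 6 of 6 (77.1%). The TATA box (TATAAA, 11.6%) and the cAMP response element (TGACGTCA, 1.84%) were in none of them. E-box and MYB matches overlapped at -134 in CD1C and at -24 in the downstream CD1A promoter, and an E-box overlapped the RUNX match of the upstream CD1A promoter. The upstream CD1A and the CD1E promoters shared the run ggaagtcaga, which contains the ETS match of CD1A and the one at -7 of CD1E. Other pairs shared longer runs, up to 12 bp between the downstream CD1D and upstream CD1A promoters. A match describes letters only.

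Across the interval, peaks covered 4578 bp in 6T-CEM, 45449 bp in Jurkat replicate 1 and 25914 bp in Jurkat replicate 2. 6T-CEM thus had 9.93-fold fewer covered bases than replicate 1 and 5.66-fold fewer than replicate 2, while the Jurkat libraries also differed from each other. Per Mb of bases covered in its own list, the interval took up 134 bp in 6T-CEM, 2804.5 bp in Jurkat replicate 1 and 938 bp in Jurkat replicate 2. The median gene had a log2 ratio of 0.30 (6T-CEM over the Jurkat mean, bases under peaks within 25 kb of either gene end plus 500), and log2 ratios below are given relative to it. On that scale the interval stood at -3.13, and Jurkat replicate 1 over replicate 2 stood at 0.85.

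**Figure D1:**
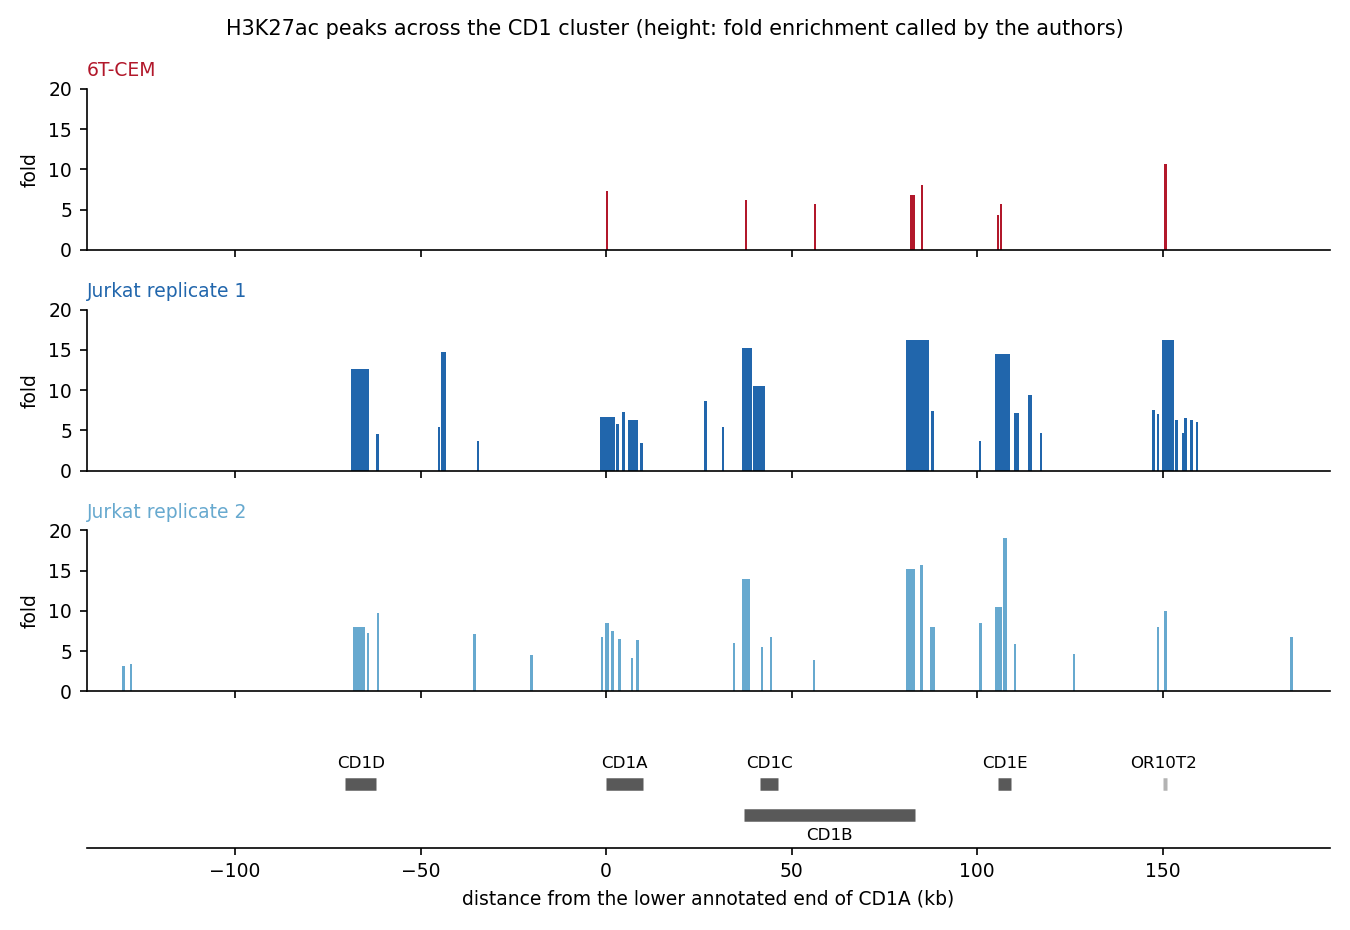
Peaks of the 3 lists across the cluster, with height as fold enrichment called by the authors and position as distance in kb from the lower annotated end of CD1A; grey bars are gene spans. 6T-CEM has 8 narrow peaks of 354 to 1197 bp, whereas the Jurkat lists have 29 each, up to 6073 bp wide in replicate 1.

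The 6T-CEM peaks were few and narrow. Their median width was 449.5 bp, against 803 bp in Jurkat replicate 1 and 761 bp in Jurkat replicate 2. Their fold enrichment, which is the authors' value at the summit, had a median of 6.52 in 6T-CEM, against 6.66 in Jurkat replicate 1 and 7.14 in Jurkat replicate 2. These medians are over different sets of peaks; in the 5 regions held by all libraries, the median ratio of 6T-CEM fold to the Jurkat mean was 0.509. The highest fold was 10.7 in 6T-CEM, against 16.3 in Jurkat replicate 1 and 19.1 in Jurkat replicate 2. Above the median fold of their own list stood 7 of the 8 peaks in 6T-CEM, against 23 of 29 in Jurkat replicate 1 and 25 of 29 in Jurkat replicate 2. At or above the 90th percentile of their own list stood 1 peak in 6T-CEM, against 9 in Jurkat replicate 1 and 15 in Jurkat replicate 2. The weakest peak of the interval had a -log10 q of 5.67 in 6T-CEM, where the list reached down to 2.01, and of 2.04 and 2.58 in the Jurkat libraries.

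All 8 6T-CEM peaks overlapped a peak of Jurkat replicate 2 and 7 of them a peak of replicate 1. In the other direction, 5 of 29 replicate 1 peaks (17.2%) and 7 of 29 replicate 2 peaks (24.1%) overlapped a 6T-CEM peak. Between the Jurkat lists, 14 of 29 replicate 1 peaks (48.3%) and 20 of 29 replicate 2 peaks (69.0%) overlapped. Overlapping peaks were joined into 38 regions, of which 14 held peaks of both Jurkat lists, and 9 of these 14 (64.3%) held no 6T-CEM peak. Among all 10206 regions held by both Jurkat lists, 15.5% held none. When peaks within 1 kb counted as shared, 4 of 9 regions (44.4%) held no 6T-CEM peak, against 13.9% of 8957 over all. Another 15 regions were held by replicate 1 alone, 8 by replicate 2 alone, 1 by 6T-CEM and replicate 2, and none by 6T-CEM alone. The same contrast chose the cluster, so nothing is read from these shares. For the peak overlaps and the regions of a single list, no share over the whole lists is given, so whether they are unusual is not known.

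CD1D, which encodes the presenter for natural killer T cells, had no peak assigned in 6T-CEM, so no fold is given; wherever CD1D enters a log2 ratio or a rank, the added 500 bases set its value. It had 5 peaks covering 7261 bp in Jurkat replicate 1 and 6 peaks covering 5729 bp in Jurkat replicate 2. Its main Jurkat peak began near the start sites and ended inside the gene, before its upper end at 158186427. This peak covered 4855 bp (chr1:158179466-158184320, fold 12.6) in replicate 1 and 3343 bp (chr1:158180071-158183413, fold 7.96) in replicate 2. The highest CD1D peak of replicate 1 lay outside the gene at chr1:158203701-158205108, with a fold of 14.7 at percentile 99.6 of its list. That intergenic peak had no counterpart in Jurkat replicate 2 or in 6T-CEM. Replicate 2 in turn had a peak of 804 bp and fold 7.14 at chr1:158212441-158213244 that neither of the other lists shared.

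CD1A, the marker of cortical thymocytes and Langerhans cells, had 579 bp in 1 peak in 6T-CEM, 8687 bp in 5 peaks in Jurkat replicate 1 and 5050 bp in 7 peaks in Jurkat replicate 2. Its log2 ratio was -3.07, and that of Jurkat replicate 1 over 2 was 0.78. The 6T-CEM peak (chr1:158248320-158248898) lay at the upstream start printed above, with its summit 427 bp from it. Its fold of 7.27 lay between the 6.66 of Jurkat replicate 1 and the 8.47 of Jurkat replicate 2 in the same region, while the region held 579 bp in 6T-CEM, 3990 bp in Jurkat replicate 1 and 2350 bp in Jurkat replicate 2. Around the downstream start, 6T-CEM had no peak, Jurkat replicate 1 had 2911 bp (chr1:158254138-158257048, fold 6.29) and Jurkat replicate 2 had 1391 bp over 2 peaks.

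CD1C, a group 1 presenter also carried by dendritic cells and some B cells, received no peak in 6T-CEM or in Jurkat replicate 1 and 653 bp in 2 peaks in Jurkat replicate 2. This count depends on the span of CD1B, which takes in the peaks beside CD1C. When each peak went to the nearest start site, an assignment chosen after seeing the data, CD1C had 876 bp in 6T-CEM, 7496 bp in Jurkat replicate 1 and 3810 bp in Jurkat replicate 2. A 3259 bp peak of Jurkat replicate 1 (chr1:158287944-158291202, fold 10.5) crossed the CD1C start, where replicate 2 had 304 bp at a fold of 5.51 and 6T-CEM had none.

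The region between CD1A and CD1C was acetylated in all 3 libraries at nearly the same place. Its peaks were chr1:158285779-158286197 in 6T-CEM, chr1:158284888-158287669 in Jurkat replicate 1 and chr1:158284996-158287166 in Jurkat replicate 2. The summits fell within 61 bp of each other and the 6T-CEM summit lay 6 bp from that of replicate 1, 3883 bp before the CD1C start. The fold was 6.19 in 6T-CEM, against 15.2 in Jurkat replicate 1 and 13.9 in Jurkat replicate 2. The 6T-CEM value stood at percentile 75.4 of its own list, that of Jurkat replicate 1 at 99.7 and that of Jurkat replicate 2 at 99.6.

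CD1B, a group 1 presenter with a deep lipid-binding groove, had the most bases of the cluster in 6T-CEM: 2515 bp in 4 peaks, against 14399 bp in 6 peaks in Jurkat replicate 1 and 7832 bp in 6 peaks in Jurkat replicate 2. Its log2 ratio was -2.25, and that of Jurkat replicate 1 over 2 was 0.89. CD1B held 54.9% of the interval's bases in 6T-CEM, against 31.7% in Jurkat replicate 1 and 30.2% in Jurkat replicate 2. By nearest start it had 1639 bp in 6T-CEM, 6903 bp in Jurkat replicate 1 and 4675 bp in Jurkat replicate 2.

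At the upper annotated end of CD1B, 158331531, 6T-CEM had 2 peaks (chr1:158330296-158331492 and chr1:158333076-158333517) with folds of 6.84 and 8.12. Jurkat replicate 1 had a single peak of 6073 bp (chr1:158329264-158335336, fold 16.3), the widest of the interval, with its summit 83 bp from that end. Jurkat replicate 2 had 2 peaks there (chr1:158329205-158331671 and chr1:158332887-158333656), with folds of 15.2 and 15.7. The 6T-CEM summit of fold 8.12 lay 53 bp from the replicate 2 summit of fold 15.7. A peak inside the long CD1B span, chr1:158304281-158304737, had a fold of 5.66 in 6T-CEM and 3.89 in Jurkat replicate 2 and was not in the list of replicate 1; by fold it was stronger in 6T-CEM than in the Jurkat library that shared it.

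CD1E, the intracellular member, had 1484 bp in 3 peaks in 6T-CEM, 15102 bp in 13 peaks in Jurkat replicate 1 and 6650 bp in 8 peaks in Jurkat replicate 2. Its log2 ratio was -2.82, and that of Jurkat replicate 1 over 2 was 1.18. Of these bases, 744 bp in 6T-CEM, 7846 bp in Jurkat replicate 1 and 1206 bp in Jurkat replicate 2 lay near OR10T2, beyond CD1E. By bases within 10 kb of CD1E, which leaves them out, the log2 ratio was -2.63. At the gene itself 6T-CEM had 2 peaks, of which chr1:158353673-158354058 (fold 4.38) had its summit 44 bp from the start and chr1:158354414-158354767 had a fold of 5.75. Jurkat replicate 1 had 4148 bp there (chr1:158353147-158357294, fold 14.6). Jurkat replicate 2 had 2 peaks, and the one inside the gene, chr1:158355406-158356465, had a fold of 19.1, the highest of the interval. In that region 6T-CEM had 740 bp, Jurkat replicate 1 had 4148 bp and Jurkat replicate 2 had 2950 bp.

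**Figure D2:**
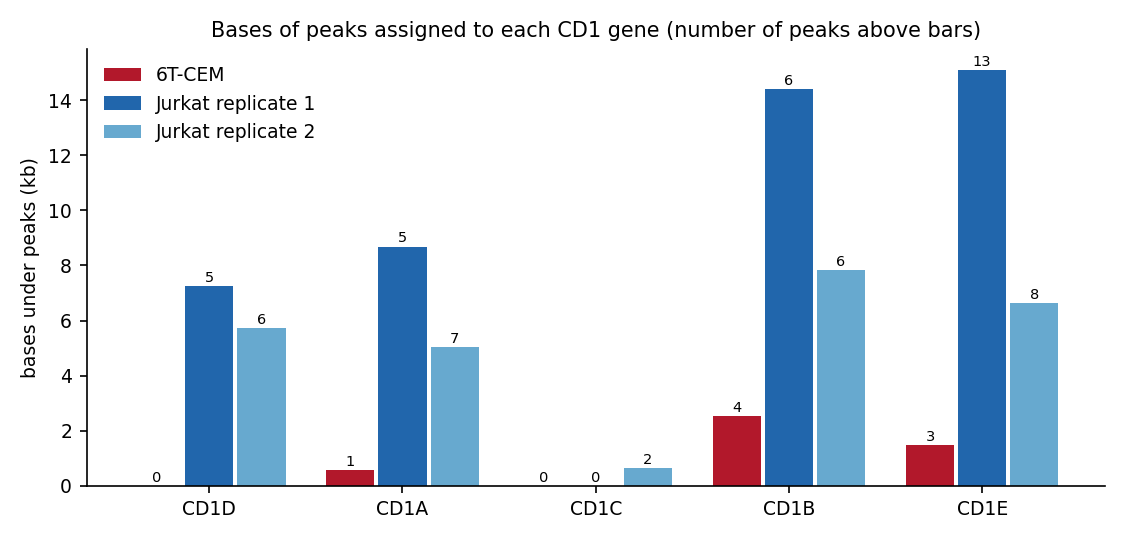
Bases under peaks assigned to each CD1 gene, in kb, by library, in the order of the genes on the chromosome; the number of peaks stands above each bar. 6T-CEM is below both Jurkat libraries at CD1D, CD1A, CD1B and CD1E, and CD1C receives peaks in Jurkat replicate 2 only.

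The strongest 6T-CEM peak of the interval did not lie at a CD1 gene. It covered 744 bp at chr1:158398621-158399364, inside OR10T2 (chr1:158398522-158399466), an olfactory receptor gene beyond CD1E, and was counted with CD1E as the nearest member. Its fold of 10.7 (percentile 96.2 of the list) lay between the 16.3 of Jurkat replicate 1 and the 9.96 of Jurkat replicate 2. The 6T-CEM summit lay 4 bp from that of replicate 2 and 138 bp from that of replicate 1. Within 10 kb of OR10T2 there was 1 peak of 744 bp in 6T-CEM, against 8 peaks covering 7846 bp in Jurkat replicate 1 and 2 peaks covering 1206 bp in Jurkat replicate 2. Without peaks within 10 kb of OR10T2, a choice made after seeing the data, the log2 ratio of the interval was -3.17.

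The 5 regions held by all libraries were the upstream CD1A start, the region before CD1C, the upper end of CD1B, the CD1E gene and OR10T2. In each of them 6T-CEM had fewer bases than both Jurkat libraries, as did 24.2% of all 8620 regions held by the 3 lists. The median ratio of 6T-CEM bases to the Jurkat mean was 0.209 over the 5 and 1.08 over all 8620. The fold was below both Jurkat libraries in 3 of the 5, against 29.8% over all, where the median fold ratio was 0.989. Fewer bases under peaks in 6T-CEM chose the cluster, so nothing is read from these comparisons. The Jurkat folds were lower in the 9 regions that held no 6T-CEM peak, with medians of 7.06 (replicate 1) and 7.96 (replicate 2), than in the 5 shared ones, with 15.2 and 13.9. Over all regions held by both Jurkat lists the same medians were 5.09 and 4.70 without a 6T-CEM peak and 5.68 and 5.10 with it.

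**Figure D3:**
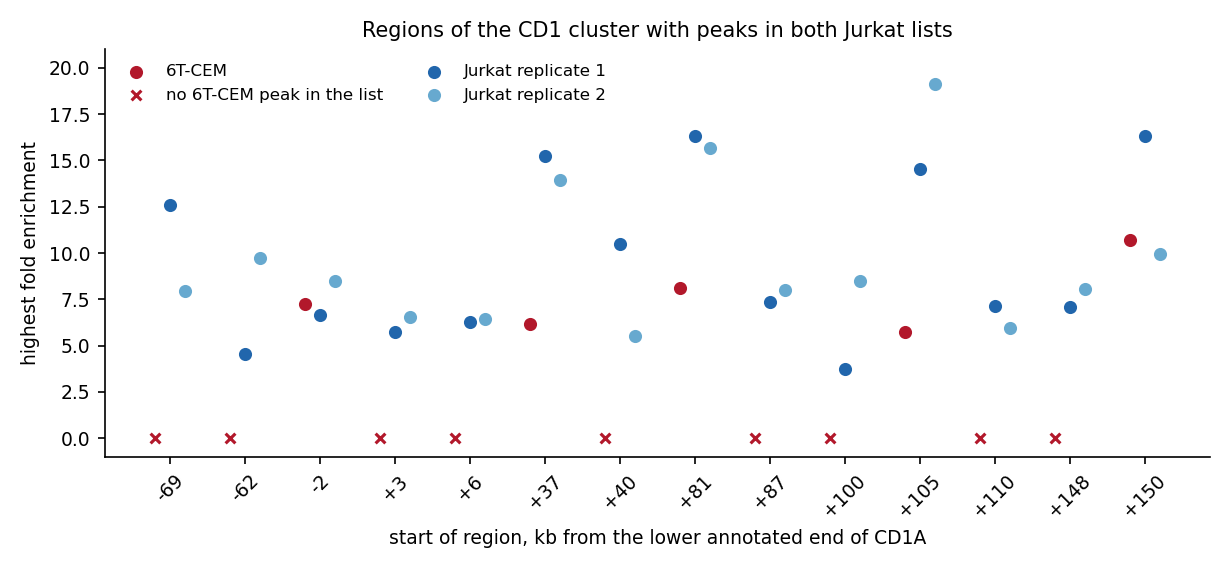
Highest fold enrichment in each of the 14 regions with peaks in both Jurkat lists, by library; crosses mark the 9 regions with no peak in the 6T-CEM list, drawn at 0, and the horizontal axis gives each region's start in kb from the lower annotated end of CD1A. The 6T-CEM point lies below both Jurkat points in 3 of the 5 regions it shares.

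When neighbouring peaks were stitched at the distance commonly used for super-enhancers and scored by width times fold, the CD1B to CD1E stretch ranked 29 of 8853 in Jurkat replicate 1, where it spanned 36.3 kb with 7 peaks, and 206 of 11190 in Jurkat replicate 2, where it spanned 29.4 kb. In 6T-CEM the same stretch fell into separate pieces, and the highest, at CD1B, spanned 3.22 kb and ranked 3277 of 13075. The remaining stitched stretches of the interval ranked 4631 or lower in 6T-CEM, 115 to 842 in Jurkat replicate 1 and 848 or lower in Jurkat replicate 2.

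In the 1 Mb below the interval, 6T-CEM had 2 peaks covering 1330 bp, Jurkat replicate 1 had 3 covering 2895 bp and Jurkat replicate 2 had 20 covering 12860 bp. In the 1 Mb above it, 6T-CEM had 3 peaks, Jurkat replicate 1 had 4 and Jurkat replicate 2 had 1. The nearest 6T-CEM peaks outside lay 695.8 kb below and 502.7 kb above, whereas Jurkat peaks came within 3.74 kb (replicate 1) and 3.81 kb (replicate 2) of the lower bound. KIRREL1, an adhesion molecule gene next to the interval, had no covered base within 25 kb of its ends in 6T-CEM, 1204 bp in Jurkat replicate 1 and 7907 bp in Jurkat replicate 2. Whether the number of gene copies differs between the lines was not tested.

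Set against all genes, the difference at the cluster was at one end of the distribution. By assigned bases, 4 of the 5 CD1 genes were at least 2-fold below both Jurkat libraries in 6T-CEM, the exception being CD1C. By bases within 25 kb of either gene end, a measure in which neighbours share peaks, all 5 were, whereas 5.13% of the 14136 genes with covered bases were and 9.23% were at least 2-fold above. By that measure, counted from the lowest ratio, CD1D ranked 11, CD1A 32, CD1C 124, CD1E 153 and CD1B 158, where the place of CD1D, at 0 bp in 6T-CEM, depends on the 500 bases added. Of 831 windows of 350 kb with at least 5000 bp in each Jurkat list, 7.46% were at least 2-fold below both Jurkat libraries. The interval's ratio was undercut by 12 of them, of which 1 (chr1:157850001-158200000) holds CD1D and overlaps the interval. The next window, which holds the other CD1 genes, was also among those 2-fold below. None of the 6 windows with as many Jurkat bases as the interval was 2-fold below. These counts describe how common such values were and are not tests, since the cluster was chosen for its difference. The count of windows below was 250 with replicate 2 alone and 130 with replicate 1 alone.

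**Figure D4:**
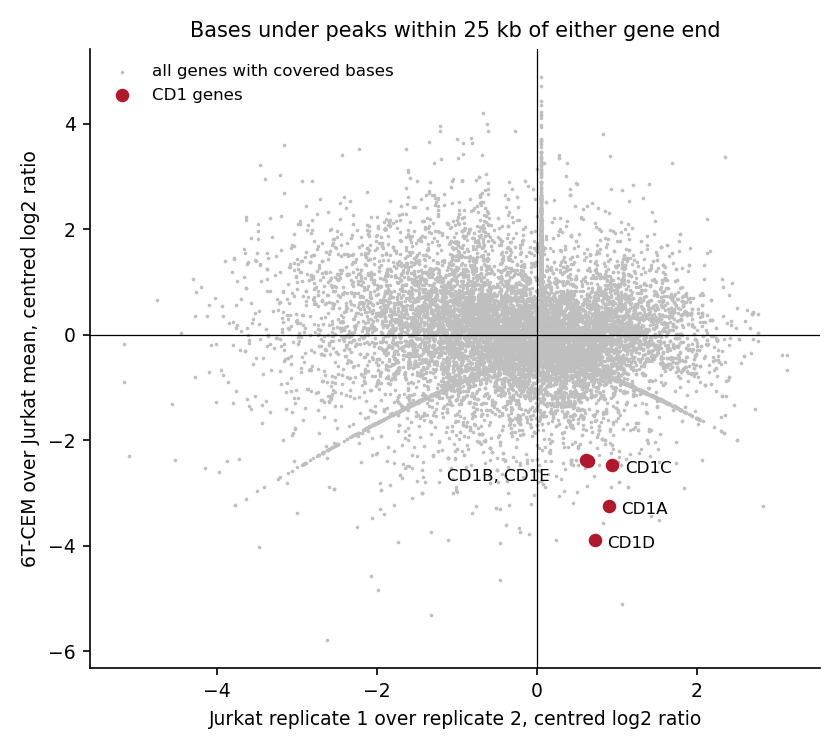
Each point is a gene with covered bases: horizontal axis, Jurkat replicate 1 over replicate 2; vertical axis, 6T-CEM over the Jurkat mean, both as centred log2 ratios of bases within 25 kb of either gene end. The 5 CD1 genes lie between -2.37 and -3.89 on the vertical axis and between 0.61 and 0.94 on the horizontal one; the lowest, CD1D, has no covered base in 6T-CEM, so its height is set by the 500 bases added.

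The genes whose pattern over the 3 libraries was most like the CD1 mean were SNX1, SIX6, USP44, CAMK4, STIL, FAM133B, DAD1 and PLXNB1, in this order. Likeness was the Euclidean distance over the 3 libraries of centred log2 values, among 2220 genes with at least 3000 bp in each Jurkat list, and ranged from 0.396 for SNX1, a sorting nexin gene, to 0.899 for PLXNB1, a semaphorin receptor gene. SNX1 had 475 bp in 6T-CEM, 4390 bp in Jurkat replicate 1 and 3290 bp in Jurkat replicate 2. CAMK4, a calcium-dependent kinase gene of T cells, had 1067 bp in 6T-CEM, 5726 bp in Jurkat replicate 1 and 3933 bp in Jurkat replicate 2. STIL, the neighbour of TAL1, had 1666 bp in 6T-CEM, 15085 bp in Jurkat replicate 1 and 16458 bp in Jurkat replicate 2. Genes on the flanks of the cluster or sharing peaks with the interval were left out, and 1 gene was kept where windows overlapped. The CD1 genes themselves lay from 0.305 (CD1A) to 0.839 (CD1D) from their mean, a range that overlaps that of the listed genes. With 3 libraries, such likeness is a description.

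Of 17 genes that act with CD1 in lipid presentation, none was at least 2-fold below both Jurkat libraries in 6T-CEM and 1 was above, GM2A, a lipid transfer protein gene, which had 1684 bp in 6T-CEM, against no covered base in either Jurkat library. The count above was 0 among peaks with a -log10 q of 5 or more, with 2000 bases added and within 10 kb. Over all genes with covered bases, 5.13% were below and 9.23% above by the same rule. B2M, the partner chain of CD1, had 2296 bp in 6T-CEM, 2351 bp in Jurkat replicate 1 and 1424 bp in Jurkat replicate 2. PSAP, which encodes the saposins that hand lipids to CD1, had 23157 bp in 6T-CEM, 6879 bp in Jurkat replicate 1 and 16622 bp in Jurkat replicate 2. MTTP, a lipid transfer gene, was covered in Jurkat replicate 1 alone, with 828 bp. The median log2 ratio of the list was -0.19, and -0.135 over its 16 genes with covered bases. Over all genes with covered bases it is 0 by centring.

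Of 14 genes of the cortical thymocyte stage, DNTT alone was at least 2-fold below both Jurkat libraries, and CD8A and CD38 were above. By the same rule, 5.13% of all genes with covered bases were below and 9.23% above. The count above was 1 within 100 kb and 5 with Jurkat replicate 1 alone. CD8A had 7571 bp in 6T-CEM, 0 bp in Jurkat replicate 1 and 2051 bp in Jurkat replicate 2. Its replicate ratio of -2.30 was larger than its difference between the lines, 2.10. CD38, an ectoenzyme gene, had 8530 bp in 6T-CEM, 407 bp in Jurkat replicate 1 and 0 bp in Jurkat replicate 2. ARPP21, a phosphoprotein gene, had 3462 bp in 6T-CEM, 13221 bp in Jurkat replicate 1 and 2068 bp in Jurkat replicate 2, so the Jurkat libraries lay on either side of 6T-CEM. The median of the list was 0.53.

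Among 16 transcription factor genes of the thymocyte programme, TAL1 was below and GATA3 and MYB were above by 2-fold. The shares over all genes with covered bases were 5.13% below and 9.23% above. The count above was 1 when divided by the list total and within 100 kb. It was 4 with width times fold and 5 with Jurkat replicate 2 alone. GATA3 had a ratio of 1.53 and a replicate ratio of -1.09. The E-protein genes TCF3 and TCF12, whose products bind E-boxes, had ratios of -0.10 and -0.19, and the ETS-family genes ETS1 and ELF1 had -0.04 and 0.49. The replicate ratio of TCF3 was -1.57, larger than its difference between the lines. The median of the list was 0.16.

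In the MHC class I family and its relatives, 2 of 13 genes were at least 2-fold below both Jurkat libraries and none above. Of all genes with covered bases, 5.13% were below and 9.23% above, whereas 7 of these 13 had any covered base. HLA-C, a classical peptide presenter and 1 of the genes below, had 0 bp in 6T-CEM, 1331 bp in Jurkat replicate 1 and 1012 bp in Jurkat replicate 2. HLA-B, HLA-E, HLA-F and HLA-G had no covered base in any of the lists. Peaks outside the chromosomes used were left out, which kept 35154 of 36362 peaks in 6T-CEM. In Jurkat replicate 1, 16159 of 16697 were kept, and in Jurkat replicate 2, 32097 of 33141. Whether peaks left out belong to HLA genes was not tested. MR1, whose product presents vitamin metabolites to T cells, had 1476 bp in 6T-CEM, 2421 bp in Jurkat replicate 1 and 1326 bp in Jurkat replicate 2.

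Among 24 genes on the flanks of the cluster, 3 were at least 2-fold below both Jurkat libraries (KIRREL1, ETV3 and OR10K2) and none above. The window of OR10K2 shares peaks with OR10T2, with the same 744 bp in 6T-CEM and 7846 bp in Jurkat replicate 1. Those peaks lie inside the interval, so the OR10K2 call reuses values that chose the cluster. Over all genes with covered bases 5.13% were below, whereas 9 of these 24 had any covered base, and with 2000 bases added to each value the count was 0. In all 3 lists, 17 or more of these genes had no covered base, among them the Fc receptor-like genes FCRL1, FCRL2, FCRL3 and FCRL5 and the myeloid gene MNDA.

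Cell identity was read from marker genes. Of 10 T-lineage genes, 9 had covered bases in 6T-CEM, against 10 in Jurkat replicate 1 and 9 in Jurkat replicate 2. The median log2 ratio of the list was -0.58, with 4 genes lower in 6T-CEM than in both Jurkat libraries and 2 higher. Among all genes with covered bases, 15.7% were lower than both and 50.2% higher than both. CD3D and CD3E, signalling chains of the T-cell receptor, were at least 2-fold below both Jurkat libraries in 6T-CEM, against 5.13% of all genes with covered bases. CD3G, with the same 6412 bp in 6T-CEM as CD3D, was not, at -0.71. CD3D, CD3E and CD3G are neighbours on chromosome 11 whose windows share peaks. Their values are therefore not separate, and the counts and median of the list hold this locus more than once. The 2 called genes became 1 at equal list length, without centring, with 2000 bases added and within 10 kb. Of 8 B-cell genes, 3 had covered bases in 6T-CEM, against 2 in Jurkat replicate 1 and 4 in Jurkat replicate 2, and MS4A1, PAX5 and EBF1 were at 0 in all libraries. Of 9 dendritic-cell genes, 4 had covered bases in 6T-CEM, against 3 in Jurkat replicate 1 and 5 in Jurkat replicate 2, and CD207, FCER1A, CLEC10A and CLEC9A were at 0 in all. Of 5 monocyte genes, 4 did in 6T-CEM, against 2 in Jurkat replicate 1 and 3 in Jurkat replicate 2. The summed bases of the dendritic list were 8102 bp in 6T-CEM, 2676 bp in Jurkat replicate 1 and 4083 bp in Jurkat replicate 2. B-cell markers summed to 10744 bp in 6T-CEM, 3337 bp in Jurkat replicate 1 and 8808 bp in Jurkat replicate 2. Monocyte markers summed to 6782 bp in 6T-CEM, 1395 bp in Jurkat replicate 1 and 3419 bp in Jurkat replicate 2. The libraries stood in the same order by the bases of their whole lists, with 34.3 Mb in 6T-CEM, 16.2 Mb in Jurkat replicate 1 and 27.6 Mb in Jurkat replicate 2. The part of these marker genes in the values at CD1 was not tested.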

How the data were processed

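The submitters' processing notes list the aligner Bowtie2 (2.2.5), the peak caller MACS2 (2.2.7) and the build hg38, and the sources used here give neither options nor controls. The authors made and deposited 1 peak list per library, where fold enrichment is each peak's ratio over the background that MACS2 modelled. The authors also deposited a -log10 p-value and a -log10 q-value per peak, as the caller computed them. The score deposited by the authors equals 10 times the -log10 q rounded down, apart from 2 peaks. Fold and q are the authors' own values, and the series text names CUT&Tag whereas the labels' protocol describes sonication.

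Peaks of chromosomes 1 to 22 and X were used. A peak was assigned by its centre to the nearest CD1 gene span (RefSeq, GRCh38.p14), and to the shorter gene inside both CD1B and CD1C. Peaks sharing at least 1 base formed a region. Log2 ratios used covered bases plus 500, relative to the median gene. Called meant a centred log2 ratio of -1 or lower (1 or higher) against each Jurkat library. No test was run, since 6T-CEM has 1 library; Jurkat replicate 1 over 2 gives the replicate difference.

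The members and gene lists were chosen with earlier results of these data known. Named genes were the CD1 genes, listed genes at the ends of a list or called, and the 8 genes of most similar pattern. B2M, PSAP, ARPP21, TCF3, TCF12, ETS1, ELF1, MR1 and CSF1R were named in addition, after their values were seen. Values of some listed genes are not reported here. The scripts were checked by a base-by-base recount at 244 genes and on 2000 made-up regions, without an error. Python 3.11.15, NumPy 2.4.6, pandas 2.3.3 and matplotlib 3.10.9 were used.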

Additional observations from a re-analysis of the deposited data

How the results depend on the processing

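No paired analysis was possible because 6T-CEM has a single H3K27ac library and the Jurkat IgG samples were not analysed here. The log2 ratio of the interval was negative under all alternatives run; it was -3.89 at equal list length, -3.79 with width times fold, and -2.64 to -3.58 with a Jurkat library left out. At equal list length (16159 peaks each) the interval held 3 peaks in the 6T-CEM list, 29 in that of Jurkat replicate 1 and 21 in that of replicate 2. The median over the CD1 genes, -2.82, takes in CD1C and CD1D, which have 0 bp in 6T-CEM and whose values the added bases set; it was -3.56 with width times fold, -1.96 with 2000 bases added, and -2.11 to -3.38 with a Jurkat library left out. All 60 alternative values of single CD1 genes were below 0 and 55 were -1 or lower, the other 5 being values of CD1C (-0.39 to -0.73). The regions of both Jurkat lists without a 6T-CEM peak, 9, numbered 4 when peaks within 1 kb counted as shared and 17 to 24 when a single Jurkat library was used; fewer libraries then had to hold the peak.

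The 62 windows at least 2-fold below became 246 with width times fold, 40 without centring, 107 when divided by the list total, 41 with 2000 bases added, and 130 to 250 with a Jurkat library left out. The listed genes below, 9, became 4 with 2000 bases added, 18 within 100 kb, and 13 to 17 with a Jurkat library left out. Those above, 7, became 14 with width times fold, 11 without centring, 4 with 2000 bases added, 4 within 10 kb, 4 within 100 kb, and 12 to 16 with a Jurkat library left out. The cause of these shifts was not tested. The lists give no depth, so a missing peak means only that none passed the caller's threshold.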

Other observations

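More than 10 kb from any CD1 gene span lay 1 of 8 peaks in 6T-CEM, 12 of 29 in Jurkat replicate 1 and 8 of 29 in Jurkat replicate 2. Of the peaks held by replicate 1 alone, the one beyond CD1D (fold 14.7) stood at percentile 99.6 of its own list and was missing from the other Jurkat list.

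Of the 9 genes of the dendritic-cell list, 2 were at least 2-fold above both Jurkat libraries in 6T-CEM, LAMP3 and CIITA. Over all genes with covered bases, 9.23% were. None of the list was above at equal list length, with 2000 bases added or within 10 kb, and 1 was within 100 kb. LAMP3, a lysosomal membrane gene, had 3063 bp in 6T-CEM, 507 bp in Jurkat replicate 1 and 405 bp in Jurkat replicate 2. CIITA, the MHC class II transactivator gene, had 2869 bp in 6T-CEM, 514 bp in Jurkat replicate 1 and 703 bp in Jurkat replicate 2. CSF1R, a growth factor receptor gene of monocytes, had 5246 bp in 6T-CEM, 0 bp in Jurkat replicate 1 and 1924 bp in Jurkat replicate 2.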
